A study of Mus musculus with 6 samples.

Results

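The genes described here are the MHC class II genes Cd74, H2-Aa, H2-Ab1 and H2-Eb1, their master regulator Ciita, and 5 immune checkpoint genes, Cd274 (PD-L1), Pdcd1lg2 (PD-L2), Pdcd1 (PD-1), Havcr2 (TIM-3) and Ido1. They were taken by symbol, and all 10 were among the 32285 mouse genes listed. RNA and chromatin accessibility had been read from the same nuclei of mouse brain, labelled as brain tumor in all libraries, by the 10x Multiome assay. All mice were C57BL/6J and carried Foxr2 overexpression, delivered with a piggyBac vector and an Akaluc and GFP reporter to neural progenitors of the embryo by in utero electroporation. The Foxr2 p53LOF library also had a p53 loss of function, made with a CRISPR guide, and the Foxr2 alone libraries did not. Such tissue is mosaic: the electroporated cells and their progeny carry the vectors, while immune, vascular and other host cells do not. The sources used here gave neither the age of each animal nor how many animals went into a library. Counts of RNA and of peaks were analysed in 1 library of each genotype, Foxr2 p53LOF and Foxr2 alone replicate 1. The counts of Foxr2 alone replicate 2 were not analysed here, and only its list of peaks entered the comparison.

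MHC class II molecules present peptides from taken-up proteins to CD4+ T cells. H2-Aa pairs with H2-Ab1 to form the I-A heterodimer, H2-Eb1 encodes the beta chain of I-E, and Cd74 encodes the invariant chain that guards the peptide groove during transport. Dendritic cells and B cells carry these molecules constitutively, whereas macrophages, microglia and many non-immune cells gain them after interferon gamma, which switches on Ciita, in part through IRF1. PD-L1 and PD-L2 bind PD-1 on T cells and dampen their activity, TIM-3 is an inhibitory receptor of exhausted T cells that myeloid cells also carry, and IDO1 degrades tryptophan.

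CIITA does not bind DNA itself. It is recruited to MHC class II promoters by the RFX complex, CREB and NF-Y, which sit on the neighbouring X and Y boxes. The promoters of 6 of the 10 genes were among the RefSeq promoter sequences (build GRCm38.p6) used here, and the 120 bases before the start of the I-A alpha and I-E beta genes are shown to let that layout be seen. In capitals are GCAAC, found in the X box of class II promoters, TGACGTCA, the letters a CREB family factor is known to prefer, and GATTGG, the reverse of the CCAAT letters known for NF-Y. The first sequence is at chr17:34287824-34287943 on the minus strand and the second at chr17:34305747-34305866 on the plus strand, both 5′ to 3′.
H2-Aa: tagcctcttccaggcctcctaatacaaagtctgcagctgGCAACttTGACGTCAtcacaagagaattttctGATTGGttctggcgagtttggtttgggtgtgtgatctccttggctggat
H2-Eb1: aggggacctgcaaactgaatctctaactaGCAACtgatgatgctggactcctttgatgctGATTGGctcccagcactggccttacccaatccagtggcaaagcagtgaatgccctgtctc

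In H2-Aa the first base of GCAAC lay 81 bases and that of GATTGG 49 bases before the start, 32 bases apart. In H2-Eb1 they lay 91 and 60 bases before the start, 31 bases apart. H2-Eb1 also held GATTGG on the opposite strand 35 bases before its start, left in lower case. The same pair stood 32 bases apart in H2-Oa, 29 in H2-Ob and 31 in H2-Eb2, 3 other class II genes, and was not found in H2-DMa, H2-DMb1 or H2-DMb2. Over the 250 bases before each of 32851 promoter starts, read on both strands, 29.9% held GCAAC, 14.6% held GATTGG and 1.55% held TGACGTCA. The pair was searched only on the strand of the gene, and at a distance of 31 bases, or at one of 32 bases, it was found in 0.0213% of promoters each (7 promoters). The Pdcd1 promoter held GCAAC and GATTGG, both on the opposite strand, 117 and 205 bases before the start, and those of Cd274, Pdcd1lg2 and Havcr2 held none of the 3 runs. Nor did any of the 6 member promoters hold the interferon-stimulated response element, searched as a pair of GAAA runs with any 2 bases between them, which 2.98% of the promoters held. The letters were chosen after the sequences had been seen, and a match is a description of the letters and not a binding site.

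After filtering, 16675 nuclei were kept, 8359 of Foxr2 p53LOF and 8316 of Foxr2 alone, with median depths of 5527 and 3637 RNA molecules (UMIs) and totals of 60006272 and 39605317 UMIs. Among them 94 cell barcodes occurred in both libraries. Foxr2 RNA, in UMIs per 1000000 UMIs (CPM), stood at 42.6 over all kept nuclei of Foxr2 p53LOF and at 3.61 over those of Foxr2 alone. Trp53 stood at 33.6 and 12.9 CPM, and as a CRISPR guide need not remove the RNA, and no UMI of the guide was counted in any class, the p53 label could not be checked from RNA. Nuclei were grouped without the 10 genes or the related gene lists, and groups were called "X-like" from marker genes. Foxr2 p53LOF held 680 macrophage-like, 472 microglia-like, 165 dendritic-like and 112 lymphocyte-like nuclei within 1619 immune-like nuclei, 19.4% of the library. It also held 2508 tumor glia-like nuclei, which are astrocyte-like or precursor-like groups with a GFP level above that of the immune-like nuclei (654.4 against 229.3 CPM), and 1526 oligodendrocyte-like, 2252 neuron-like, 94 host OPC-like (oligodendrocyte precursor) and 76 vascular-like nuclei. Lymphocyte-like (361.4 CPM), vascular-like (258.9 CPM) and the larger group of macrophage-like nuclei (275.7 CPM) also passed that GFP level. Host OPC-like nuclei had 194.3 CPM, so passing the level does not by itself mark cells that carry the vector. As GFP RNA was also counted in immune-like nuclei, and at 76.2 CPM in neuron-like ones, RNA from other nuclei was present in droplets or the reporter was carried there, which cannot be told apart.

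Foxr2 alone held 424 immune-like nuclei, of which 406 formed 1 group. All 11 microglia markers had UMIs there, and their summed level was 4563 CPM against 5188 CPM in the microglia-like nuclei of Foxr2 p53LOF. The macrophage markers summed to 203.5 CPM, and Ccr2, Mrc1, Cd163, Ms4a7 and Plac8 were at 0. Because its median of 1120 UMIs was 30.8% of the library's median and no microglia marker was among its 10 leading genes, this group was left without a cell type name and is called the immune-like group of Foxr2 alone. Foxr2 alone also held 596 tumor glia-like, 3020 oligodendrocyte-like and 4246 neuron-like nuclei. Only 3 macrophage-like nuclei and 1 lymphocyte-like nucleus were found there, too few for a level. With 1 library per genotype no test between genotypes could be made and no p-value is given; the ranges in parentheses are exact 95% intervals that cover counting error only.

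MHC class II RNA followed the antigen-presenting cells of Foxr2 p53LOF. The 4 genes summed to 10680 CPM (10404 to 10962) in dendritic-like nuclei and 5110 CPM (5007 to 5215) in macrophage-like nuclei. They summed to 1813 CPM (1674 to 1961) in lymphocyte-like and 1781 CPM (1710 to 1854) in microglia-like nuclei, which did not differ beyond counting error. Outside the immune-like nuclei the sum was 458.6 CPM in vascular-like and 397.9 CPM in host OPC-like nuclei, whose intervals overlapped. It was 282.5 CPM in tumor glia-like and 156.5 CPM in oligodendrocyte-like nuclei, and lowest in the neuron-like class with 67.8 CPM (64.6 to 71.1). In this order each class other than those overlapping neighbours stood apart from the next.

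**Figure D1:**
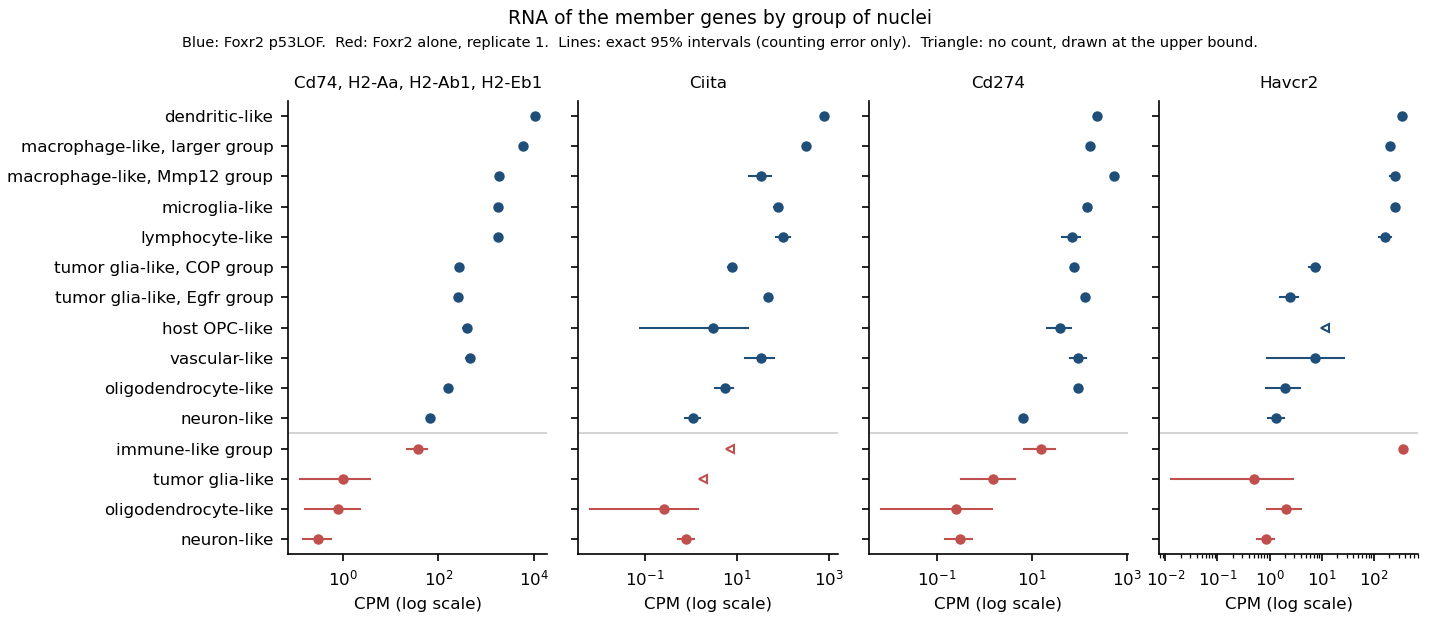
RNA level (CPM, log scale) of the MHC class II set, Ciita, Cd274 and Havcr2 in groups of nuclei of Foxr2 p53LOF (blue) and Foxr2 alone replicate 1 (red), with exact 95% intervals for counting error. The MHC class II set ran from 10680 CPM in dendritic-like to 67.8 CPM for neuron-like ones of the same library and was 37.2 CPM in the immune-like group of Foxr2 alone, whereas Havcr2 stood at 369.8 CPM there and 353.1 CPM in dendritic-like nuclei.

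Per 100 Cd74 UMIs the set held 233.1 UMIs in macrophage-like, 259.3 in dendritic-like, 244.0 in lymphocyte-like, 225.7 in tumor glia-like, 227.0 in oligodendrocyte-like and 222.8 in neuron-like nuclei. Microglia-like nuclei were lower, with 179.3 (167.6 to 191.9). Single genes varied more than this sum: dendritic-like over macrophage-like nuclei gave log2 differences of 0.91 (0.83 to 0.99) for Cd74 and 1.40 (1.28 to 1.52) for H2-Eb1. In microglia-like nuclei Cd74 stood at 993.5 CPM, H2-Aa at 327.4, H2-Ab1 at 271.8 and H2-Eb1 at 188.5 CPM. In macrophage-like nuclei they stood at 2193, 941.7, 1229 and 747.3 CPM. The step between the classes was therefore uneven: on the log2 scale Cd74 was higher in macrophage-like nuclei by 1.14 (1.05 to 1.23), H2-Aa by 1.52, H2-Eb1 by 1.99 and H2-Ab1 by 2.18 (2.02 to 2.34). The sum was 2.87-fold higher.

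Ciita showed the same order at the top. It stood at 786.9 CPM (713.3 to 866.0) in dendritic-like, 251.5 CPM (229.0 to 275.6) in macrophage-like, 101.2 CPM in lymphocyte-like and 80.3 CPM (65.8 to 97.1) in microglia-like nuclei, the last 2 with overlapping intervals. Dendritic-like over macrophage-like nuclei gave log2 differences of 1.65 (1.45 to 1.84) for Ciita and 1.06 (1.02 to 1.11) for the MHC class II set. Ciita overlaps Dexi on the opposite strand over 25888 bases, and how reads were assigned by strand was not given in the sources used here. Of macrophage-like nuclei thinned to 1000 UMIs each, 96.2% of the 130 with a Ciita UMI and 82.5% of the 527 without one had an MHC class II UMI. Within the larger of the macrophage-like groups, 537 nuclei before thinning, the shares were 96.0% (91.0 to 98.7) of 126 and 88.5% (85.0 to 91.5) of 401, with overlapping intervals, and in the smaller one only 4 of 130 nuclei had a Ciita UMI.

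Of the 7 members with at least 10 CPM in macrophage-like or microglia-like nuclei, 5 were at least 2-fold higher in macrophage-like nuclei (the MHC class II set and Ciita) and none was 2-fold lower, against 9.72% and 7.87% of all genes past that level. As 10 CPM on only 1 side was enough to enter such a comparison, the direction of a gene under 10 CPM on the other side was fixed by the filter, and its call supports nothing. Among 13 other class II pathway genes the only 2-fold difference was Ctsl, a lysosomal protease, which was lower. Of 12 costimulation and checkpoint genes 2 were higher, Cd40 and Cd200r1, and 2 lower, Lag3 and Nectin2. Thus H2-DMa, which loads peptides, stood at 89.5 CPM in macrophage-like and 51.8 CPM in microglia-like nuclei, and Ifi30, a lysosomal reductase, at 189.4 and 154.7 CPM, both less than 2-fold apart. Of 8 members tested between dendritic-like and macrophage-like nuclei, 5 were 2-fold higher in dendritic-like nuclei and none lower, against 9.73% and 7.84% of all genes, and 1 of the 5, Pdcd1lg2, was under 10 CPM in macrophage-like nuclei. Of 16 other class II pathway genes 3 were higher, the accessory genes H2-DMb2 (62.0 against 7.14 CPM), H2-Oa (69.5 against 1.10 CPM) and H2-Ob (88.3 against 2.20 CPM), which modulate peptide loading and were all under 10 CPM in macrophage-like nuclei. Lgmn, a lysosomal protease, was lower, and the median log2 difference of the 16 was 0.35.

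The macrophage-like nuclei were not uniform. They fell into a larger group of 537 nuclei, led by Ccr2 and Ms4a4a, and a group of 143 nuclei led by Mmp12 and Nos2 with inflammatory and stress genes such as Cxcl2 and Hspa1b. In the Mmp12 group 7 of 12 macrophage markers were raised, but none was among its 10 leading genes. Of 5 cell cycle markers 4 were raised there and 1 in the larger group. The MHC class II set stood at 6067 CPM in the larger group and 1893 CPM (1763 to 2030) in the Mmp12 group, and Ciita at 316.3 and 33.5 CPM (18.3 to 56.3), 9.43-fold lower. Cd274 went the other way, with 167.4 CPM in the larger group and 532.0 CPM (464.3 to 606.7) in the Mmp12 group, its highest level in any group, 3.18-fold higher. Havcr2 stood at 207.3 and 251.6 CPM, with an interval of the log2 difference from -0.06 to 0.61. Of 7 members tested, 5 were at least 2-fold lower and 1 higher in the Mmp12 group, against 13.7% and 7.98% of all genes. Of 13 other class II pathway genes 7 were lower, among them H2-DMa, Ctss and Ifi30, and none was higher. The ligand genes Cd86, Pvr and Tnfsf9 were higher in the Mmp12 group and Cd80 was lower. Tnfsf9, at 6.59 CPM over all macrophage-like nuclei, entered through the Mmp12 group only, and nothing is read from its call. Over the same nuclei Cd80 stood at 18.7 CPM, Pvr at 23.1 CPM and Rfx5, also among the lower genes, at 12.1 CPM. Whether these genes reached 10 CPM in both groups was not examined.

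**Figure D2:**
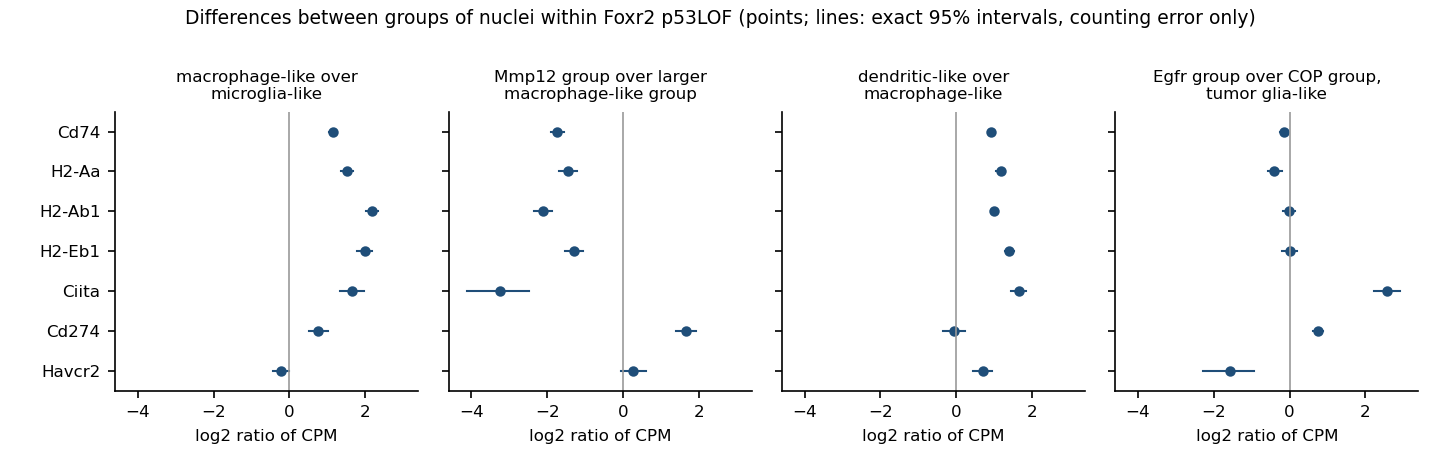
Log2 ratio of CPM for 7 members in 4 comparisons of groups of nuclei within Foxr2 p53LOF; lines are exact 95% intervals for counting error and the vertical line marks no difference. In the Mmp12 group Ciita was lower by -3.24 and Cd274 higher by 1.67, and in the Egfr group of tumor glia Ciita was higher by 2.56 while H2-Ab1 and H2-Eb1 lay at -0.02 and 0.01.

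Compared with MHC class II RNA, Cd274 RNA differed less between immune-like and tumor glia-like nuclei. It stood at 250.9 CPM (228.5 to 275.0) in macrophage-like and 242.3 CPM in dendritic-like nuclei, and at 147.9 CPM (128.0 to 170.1) in microglia-like nuclei. The levels of 103.6 CPM (99.4 to 107.9) in tumor glia-like, 96.7 CPM (87.3 to 106.7) in oligodendrocyte-like, 96.2 CPM in vascular-like and 69.4 CPM (44.5 to 103.3) in lymphocyte-like nuclei had overlapping intervals. Host OPC-like nuclei had 40.1 CPM and neuron-like nuclei 6.52 CPM (5.56 to 7.59). Macrophage-like over microglia-like nuclei gave a log2 difference of 0.76 (0.52 to 1.01), which was 0.18 (-0.10 to 0.46) with the larger macrophage-like group alone and 1.85 with the Mmp12 group alone. Cd274 overlaps AC119228.1, an antisense transcript, over 11055 bases.

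Havcr2 was highest in immune-like nuclei. It stood at 353.1 CPM (304.4 to 407.3) in dendritic-like, 255.3 CPM (228.9 to 284.0) in microglia-like, 217.4 CPM (196.5 to 239.9) in macrophage-like and 167.7 CPM (127.3 to 216.8) in lymphocyte-like nuclei. Microglia-like and macrophage-like nuclei differed little: macrophage-like over microglia-like nuclei gave a log2 difference of -0.23 (-0.44 to -0.02). The interval included 0 with at least 1000 genes and 1000 peak counts per nucleus (-0.17, -0.36 to 0.02), with nuclei classed by their own marker UMIs (-0.08, -0.26 to 0.11) and with the Mmp12 group alone (-0.02, -0.35 to 0.30). Tumor glia-like nuclei had 5.52 CPM, oligodendrocyte-like 1.96 CPM and neuron-like 1.35 CPM.

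PD-1 and PD-L2 RNA came from few nuclei. Pdcd1 stood at 72.3 CPM (46.8 to 106.7, 25 UMIs) in lymphocyte-like nuclei and at or under 3.76 CPM in dendritic-like, macrophage-like and microglia-like nuclei. Of 29 Pdcd1 UMIs in all immune-like nuclei, 25 were thus in lymphocyte-like nuclei. Pdcd1lg2 stood at 118.3 CPM (90.9 to 151.4, 63 UMIs) in dendritic-like, 26.0 CPM (9 UMIs) in lymphocyte-like and 3.30 CPM (6 UMIs) in macrophage-like nuclei, and no UMI was counted in microglia-like nuclei, where 3 counts would be 2.25 CPM. Pdcd1lg2 overlaps the antisense gene A930007I19Rik over 6412 bases. Ido1 had 5 UMIs in the 1619 immune-like nuclei and 49 UMIs (2.18 CPM) in tumor glia-like nuclei. It was counted most often in neuron-like nuclei of Foxr2 alone, with 107 UMIs (3.24 CPM) against 7 UMIs (0.278 CPM) in those of Foxr2 p53LOF. By CPM, oligodendrocyte-like nuclei of Foxr2 alone were slightly lower, with 3.05 CPM (12 UMIs). Dendritic-like nuclei of Foxr2 p53LOF had 3.76 CPM, but from 2 UMIs only.

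Receptor genes known from T cells were counted in lymphocyte-like nuclei. Of 20 costimulation and checkpoint genes 11 were 2-fold higher there than in macrophage-like nuclei, among them the inhibitory receptors Ctla4 (433.7 against 0.55 CPM), Lag3 (147.5 against 14.3 CPM) and Tigit (17.3 CPM against none) and the activating receptor Icos (266.0 against 1.65 CPM). Of the 11, Lag3 and Cd200r1 alone reached 10 CPM in macrophage-like nuclei, so the direction of the others was fixed by the filter. Lower there were 3 of the 20, Cd86, Cd40 and Sirpa, which antigen-presenting cells carry. Ifng, the gene of interferon gamma, stood at 66.5 CPM there, and no Ifng UMI was counted in dendritic-like, macrophage-like or microglia-like nuclei. Of 9 members tested, Pdcd1 and Pdcd1lg2 were higher in lymphocyte-like nuclei and 6 were lower, against 17.6% and 10.8% of all genes. Pdcd1 and Pdcd1lg2 were under 10 CPM in macrophage-like nuclei, and nothing is read from their calls. The macrophage markers summed to 2047 CPM in these nuclei and 4174 CPM in macrophage-like nuclei, with F13a1 and Cd163 at 0, and 10 of the 12 had UMIs. Itga4 and Itgal on that list are also known in T cells. Whether part of the 1813 CPM of MHC class II RNA in lymphocyte-like nuclei came with macrophage RNA was not tested.

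The tumor glia-like nuclei of Foxr2 p53LOF were mainly 2 groups: 1226 nuclei with markers of committed oligodendrocyte precursors (COP group) and 1150 astrocyte-like nuclei with Egfr among the leading genes (Egfr group), in which OPC markers were raised as well (6 of 8, with a median log2 difference from the lower quartile of all groups of 4.28, against 6 of 8 and 4.47 for astrocyte markers). A smaller group of 127 astrocyte-like nuclei was led by Etnppl and A2m. Immune-like nuclei stood above tumor glia-like nuclei by 3.91 (log2, 3.87 to 3.95) for the MHC class II set, 3.18 for Ciita, 5.43 for Havcr2 and 4.59 for Pdcd1lg2, but by only 0.89 for Cd274, a 1.85-fold difference. Counted as UMIs per nucleus instead of per 1000000 UMIs, the difference of the MHC class II set was 2.36 (2.32 to 2.40). Of 8 members tested 7 were 2-fold higher in immune-like nuclei and none lower, against 17.5% and 22.6% of all genes, but Havcr2 and Pdcd1lg2 reached 10 CPM in immune-like nuclei only.

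The MHC class II set stood at 277.5 CPM (267.9 to 287.5) in the COP group and 252.8 CPM (243.3 to 262.5) in the Egfr group, with 823.1 CPM in the A2m group. Of 10 general immune markers 3 were raised in the COP group, with a median log2 difference from the lower quartile of all groups of 2.43. In the Egfr group none was raised (0.77) and in the A2m group 8 were (4.33). Ciita stood at 7.88 CPM (6.32 to 9.71) in the COP group and 46.6 CPM (42.6 to 50.9) in the Egfr group, a log2 difference of 2.56 (2.23 to 2.91). Ciita thus differed 5.91-fold between groups whose MHC class II RNA differed by -0.13 (-0.21 to -0.06). Havcr2, like the immune markers, was higher in the COP group, with 7.35 CPM against 2.45 CPM in the Egfr group. Whether RNA of immune cells adds to the MHC class II RNA of these groups was not tested. Nucleus by nucleus at 1000 UMIs, an MHC class II UMI was found in 46.2% (32.2 to 60.5) of the 52 tumor glia-like nuclei with a Ciita UMI and in 20.3% (18.7 to 22.0) of the others. The shares were 35.0% of 40 and 17.3% in the Egfr group, and 9 of 10 nuclei and 21.1% in the COP group. Cd274 stood at 79.5 CPM (74.3 to 84.9) and 133.0 CPM (126.1 to 140.1), higher in the Egfr group by 0.74. Ciita was the only one of 6 members past a 2-fold difference between these groups, against 9.56% of all genes higher and 9.55% lower in the Egfr group, and it reached 10 CPM in the Egfr group only. Of 13 other class II pathway genes 2 were higher in the Egfr group, Rfx5 and Rfxank, which encode subunits of the RFX complex, and 1, Ctss, was lower. Of 10 costimulation and checkpoint genes none was higher and 4 were lower, Cd86, Vsir, Cd200 and Sirpa. Over all tumor glia-like nuclei Cd86 (9.44 CPM) and Vsir (8.11 CPM) were under 10 CPM, so they entered through the COP group only. Rfxank stood at 10.7 CPM there, so a 2-fold difference puts it under 10 CPM in the COP group. It entered through the Egfr group only, and nothing is read from these 3 calls. For Rfx5 (16.8 CPM), Cd200 (18.1 CPM) and Sirpa (15.3 CPM) this was not examined.

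MHC class II RNA outside the immune-like nuclei was set beside RNA of immune markers. The 10 general immune markers, all with UMIs in each class, summed to 207.0 CPM in tumor glia-like, 112.1 CPM in oligodendrocyte-like and 51.9 CPM in neuron-like nuclei. Per 100 UMIs of these markers the MHC class II set held 136.5 UMIs (131.4 to 141.8) in tumor glia-like, 139.6 (123.6 to 157.8) in oligodendrocyte-like and 130.6 (121.5 to 140.5) in neuron-like nuclei, 3 values with overlapping intervals, against 61.6 in macrophage-like, 14.8 in microglia-like and 149.0 in dendritic-like nuclei. Within tumor glia the ratio was not constant, with 101.3 in the COP group, 289.2 in the Egfr group and 84.6 in the A2m group. Cd274 held 50 UMIs (47.6 to 52.6) per 100 in tumor glia-like, 86.2 (75.1 to 98.9) in oligodendrocyte-like and 12.6 (10.6 to 14.8) in neuron-like nuclei, and 2.02 in all immune-like nuclei. Ciita held 12.95, 4.81 and 2.14 in the same 3 classes and 2.55 in all immune-like nuclei.

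Shares of nuclei were compared at equal depth. Thinned to 1000 UMIs per nucleus, 97.5% of dendritic-like, 85.2% (82.3 to 87.9) of macrophage-like, 71.0% (66.7 to 75.1) of microglia-like and 30.2% of lymphocyte-like nuclei had an MHC class II UMI. Microglia-like and lymphocyte-like nuclei thus differed in share although their summed CPM did not differ beyond counting error. Tumor glia-like nuclei gave 20.9% (19.3 to 22.6), oligodendrocyte-like 13.4% (11.7 to 15.2) and neuron-like nuclei, assumed but not tested to lack these genes, 6.53% (5.54 to 7.63). Unthinned, at median depths of 7578, 2452 and 9949 UMIs, these 3 shares were 61.9%, 28.4% and 44.7%. Cd274 was found in 16.7% of macrophage-like, 11.5% of microglia-like, 7.95% (6.91 to 9.10) of tumor glia-like, 7.28% (6.02 to 8.70) of oligodendrocyte-like and 0.666% (0.373 to 1.10) of neuron-like nuclei. Ciita was found in 58.0%, 19.8% and 6.61% of dendritic-like, macrophage-like and microglia-like nuclei, and in 2.14% of tumor glia-like and 0.0888% of neuron-like nuclei. In the COP group 7.94% (2.63 to 17.6) of the 63 nuclei with a Cd274 UMI and 22.5% (20.1 to 25.1) of the others had an MHC class II UMI, whereas in the Egfr group the shares were 26.7% (19.0 to 35.5) of 120 and 16.9% (14.7 to 19.3).

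**Figure D3:**
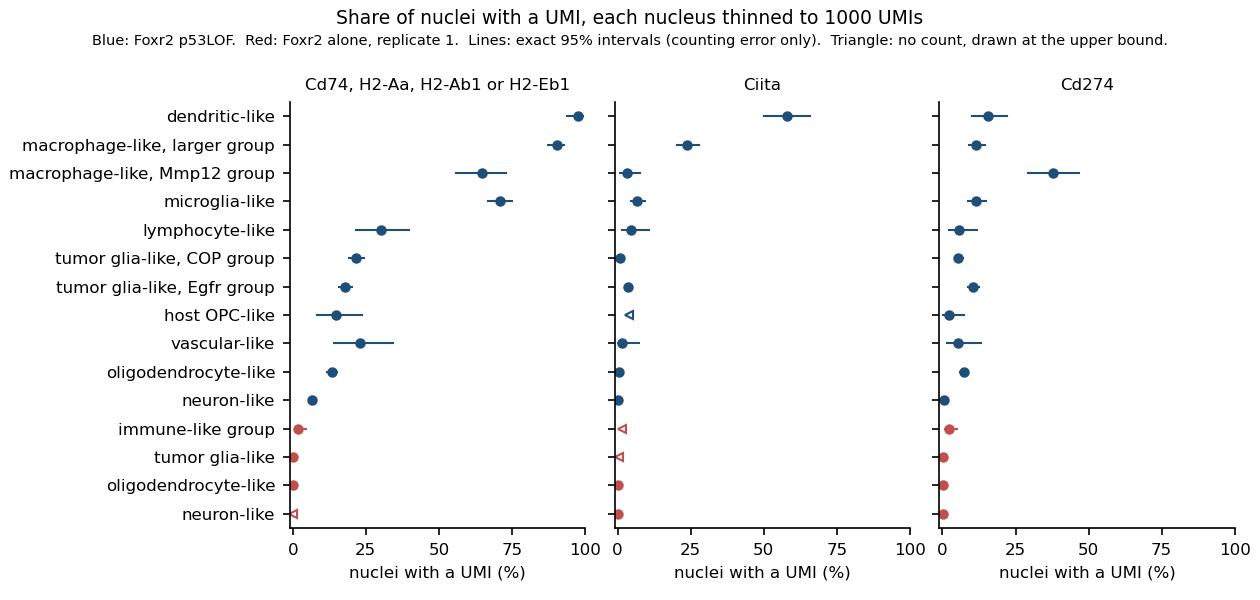
Percent of nuclei with a UMI of the MHC class II set, Ciita or Cd274 after thinning each nucleus to 1000 UMIs, in Foxr2 p53LOF (blue) and Foxr2 alone replicate 1 (red), with exact 95% binomial intervals. The MHC class II set was found in 97.5% of dendritic-like and 6.53% of neuron-like nuclei of Foxr2 p53LOF and in 1.91% of the immune-like group of Foxr2 alone, where 144 of 406 nuclei were too shallow and left out.

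Between the libraries, the MHC class II set and Cd274 were lower in Foxr2 alone in each class compared. The MHC class II set stood at 1781 CPM (2372 UMIs) in microglia-like nuclei of Foxr2 p53LOF and 37.2 CPM (22.4 to 58.1, 19 UMIs) in the immune-like group of Foxr2 alone, 47.9-fold lower there (log2 5.58, 4.94 to 6.32). Ciita had 107 UMIs against none, at least 13.7-fold higher in Foxr2 p53LOF by the limit of 3 counts. Cd274 stood at 147.9 and 15.7 CPM (8 UMIs), a log2 difference of 3.24 (2.23 to 4.47). Havcr2 went against this: 255.3 CPM in Foxr2 p53LOF and 369.8 CPM (319.0 to 426.5) in Foxr2 alone, a log2 difference of -0.53 (-0.80 to -0.27), beside a median of -0.24 over all genes. Of 7 members tested 6 were 2-fold higher in Foxr2 p53LOF and none lower, against 12% and 25.0% of all genes, but H2-Aa, H2-Ab1, H2-Eb1 and Ciita reached 10 CPM in Foxr2 p53LOF only. Of 13 other class II pathway genes 2 were higher and 3 lower, with a median log2 difference of 0.04. Of 13 costimulation and checkpoint genes 3 were higher and 4 lower. Some of these genes reached 10 CPM on 1 side only, so their direction was fixed by the filter. They were Nfya (52.6 CPM in Foxr2 p53LOF against 9.78), Rfxap (8.26 against 23.5), Cd40 (21.8 against 0) and Cd200 (6.01 against 15.7). As only 1 library stood for each genotype, and the 2 groups differed in depth and in the support for their name, genotype and library cannot be told apart.

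The same held outside the immune-like nuclei. In oligodendrocyte-like nuclei the MHC class II set had 638 UMIs (156.5 CPM) in Foxr2 p53LOF and 3 UMIs (0.763 CPM) in Foxr2 alone, and Cd274 had 394 UMIs (96.7 CPM) and 1 UMI (0.254 CPM), a log2 difference of 8.57 (6.08 to 13.88). In neuron-like nuclei the MHC class II set had 1707 UMIs (67.8 CPM) and 10 UMIs (0.303 CPM), whereas Ciita had 28 and 26 UMIs (1.11 and 0.787 CPM). In tumor glia-like nuclei the MHC class II set stood at 282.5 and 1.01 CPM (2 UMIs) and Cd274 at 103.6 and 1.52 CPM (3 UMIs). The name is less certain in Foxr2 alone. There it covers 426 astrocyte-like nuclei (GFP at 149.8 CPM) and 168 OPC-like nuclei (GFP at 99.6 CPM) whose level exceeded the 19.4 CPM of immune-like nuclei, as did the 58.3 CPM of oligodendrocyte-like nuclei. The OPC-like nuclei belong to the same group that is called host OPC-like in Foxr2 p53LOF. In the astrocyte-like nuclei alone the MHC class II set had 1 UMI (0.660 CPM) and Cd274 had 3 UMIs (1.98 CPM). The members with at least 10 CPM in oligodendrocyte-like or neuron-like nuclei reached it in Foxr2 p53LOF only, so the filter fixed their direction and nothing is read from their number. Of all genes, 12.7% were 2-fold higher in Foxr2 p53LOF and 19.7% lower in oligodendrocyte-like nuclei, and 12.7% and 18.1% in neuron-like nuclei. Different groups of nuclei held these classes in each library: 1 group held all but 2 of the 3020 oligodendrocyte-like nuclei of Foxr2 alone and another those of Foxr2 p53LOF, the main neuron-like groups differed, and so did the main tumor glia-like groups. A group held mostly by 1 library may be that library and not a type.

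In RNA, all 6 members tested between tumor glia-like and neuron-like nuclei of Foxr2 p53LOF were 2-fold higher in tumor glia-like nuclei, against 27.7% of all genes, with 16.9% lower, and 3 of 5, Cd74, H2-Ab1 and Cd274, were higher in oligodendrocyte-like than in neuron-like nuclei, against 18.7% and 25.8%. H2-Eb1, Ciita and Cd274 were under 10 CPM in neuron-like nuclei and were tested only through the other class.

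Among the interferon gamma axis genes reported here, Irf1 and Irf8 were 2-fold higher in microglia-like nuclei of Foxr2 p53LOF than in the immune-like group of Foxr2 alone, and Ifngr1, a receptor chain, was lower, against 12% of all genes higher and 25.0% lower. Irf1, an interferon-induced activator of Ciita and Cd274, stood at 136.7 against 25.4 CPM. It stood at 185.2 against 6.59 CPM in tumor glia-like, 65.0 against 1.78 CPM in oligodendrocyte-like and 7.11 against 1.39 CPM in neuron-like nuclei, in each case higher in Foxr2 p53LOF. Over 13 classes of both libraries the genes whose log level followed Cd274 most closely, among 14726 genes, were Zbp1, Gm4951, Rnf213, Stat2 and Uba7, with Pearson coefficients from 0.977 to 0.982. Cd74 was followed by H2-Ab1, H2-Aa, Fgl2, H2-Eb1 and Med13 (0.965 to 0.992), and Havcr2 by Cd48, Raet1e, Gcnt1, Traf3ip3 and Gm46224 (0.986 to 0.992). Classes of 1 library share depth and free RNA, so these coefficients are descriptions.

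**Figure D4:**
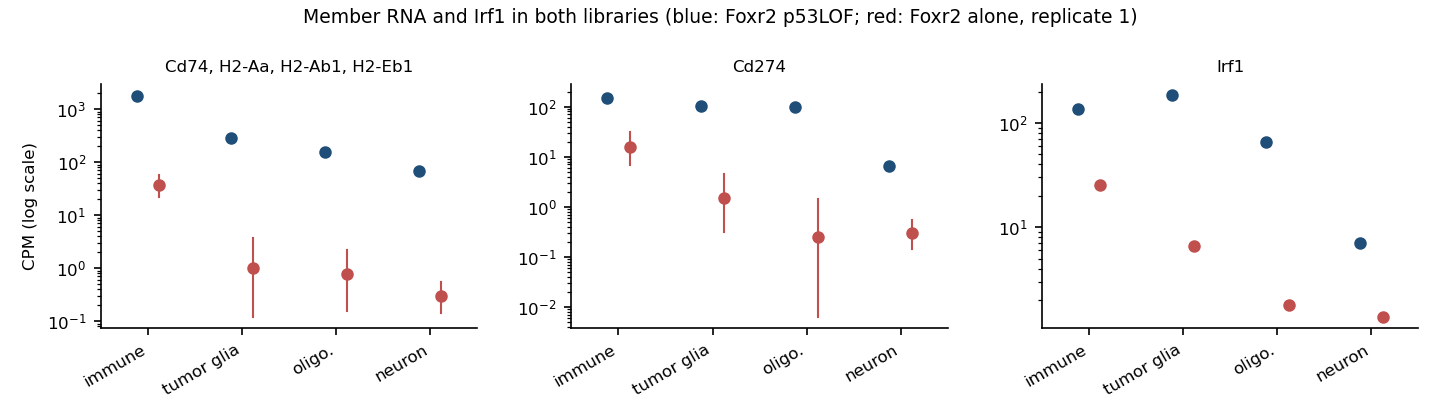
CPM (log scale) of the MHC class II set, Cd274 and Irf1 in Foxr2 p53LOF (blue) and Foxr2 alone replicate 1 (red) for microglia-like nuclei or the immune-like group, tumor glia-like, oligodendrocyte-like and neuron-like nuclei; lines for the first 2 are exact 95% intervals for counting error. All 3 stood higher in Foxr2 p53LOF in all 4 classes, for example Irf1 at 65.0 against 1.78 CPM in oligodendrocyte-like nuclei.

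Promoter accessibility was read from the same nuclei as fragments in peaks within 1 kb of an annotated start, per 1000000 peak fragments of the class (fragment CPM). In Foxr2 p53LOF 9 of 10 members had such a peak, all but Pdcd1lg2. In Foxr2 alone 7 had one, all but Ciita, Pdcd1lg2 and Havcr2, and in Foxr2 alone replicate 2 all but Ciita and Pdcd1lg2. The libraries had 112924, 135201 and 99112 peaks, called separately. The share of all genes with such a peak was not counted, so nothing is read from these numbers of members. Peaks covered the starts of H2-Aa (chr17:34287430-34288344, mm10), H2-Ab1 (chr17:34262792-34263691), H2-Eb1 (chr17:34305502-34306309), Cd274 (chr19:29366856-29367710) and Havcr2 (chr11:46454414-46455331) in Foxr2 p53LOF. The H2-Aa and H2-Eb1 peaks hold the bases printed above.

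The promoters of the MHC class II set gave 401.1 fragment CPM (348.9 to 458.8) in dendritic-like, 332.6 (306.7 to 360.0) in macrophage-like, 276.6 (249.0 to 306.4) in microglia-like and 110.6 in lymphocyte-like nuclei. Tumor glia-like nuclei gave 73.0 (68.6 to 77.5), neuron-like 74.7 (69.3 to 80.3) and oligodendrocyte-like nuclei 42.4. Accessibility thus spanned less than RNA: macrophage-like over microglia-like nuclei differed by 0.27 (log2, 0.08 to 0.46) in fragments and 1.52 in RNA, and tumor glia-like over neuron-like nuclei by -0.03 (-0.17 to 0.11) in fragments and 2.06 in RNA. Immune-like over tumor glia-like nuclei differed by 2.06 (1.95 to 2.18) in fragments and 3.91 in RNA, or by 1.14 and 2.36 when both were counted per nucleus. Of 13 member peaks 9 were 2-fold higher in immune-like nuclei and 1, that of Ido1, lower, against 9.96% and 31.4% of all promoter peaks. Havcr2 and the upstream Ciita peak were under 20 fragments in tumor glia-like nuclei, as was Ido1 in immune-like nuclei. Between macrophage-like and microglia-like nuclei none of 9 passed 2-fold, against 4.33% of promoter peaks higher and 3.34% lower, and between dendritic-like and macrophage-like nuclei none of 9, against 2.13% and 3.59%. In the Mmp12 group none of 9 was higher and 2 were lower than in the larger group, against 1.25% and 4.18%, with H2-Aa, H2-Ab1, Ciita and Cd274 under 20 fragments in the Mmp12 group. In tumor glia-like over neuron-like nuclei 3 of 11 were higher and none lower, against 13% and 12.5%. In oligodendrocyte-like over neuron-like nuclei none of 10 was higher and 4 were lower, against 7.75% and 28.1%, with Cd74, H2-Aa, Ciita and Pdcd1 under 20 fragments in oligodendrocyte-like nuclei. In lymphocyte-like over macrophage-like nuclei 7 of 9 were lower and none higher, against 8.25% and 5.57%, but of the members only Cd274 reached 20 fragments in lymphocyte-like nuclei. In Foxr2 alone the 5 MHC class II promoter peaks gave 71.8 fragment CPM (58.6 to 87.0) in its immune-like group and 37.9 in neuron-like nuclei.

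**Figure D5:**
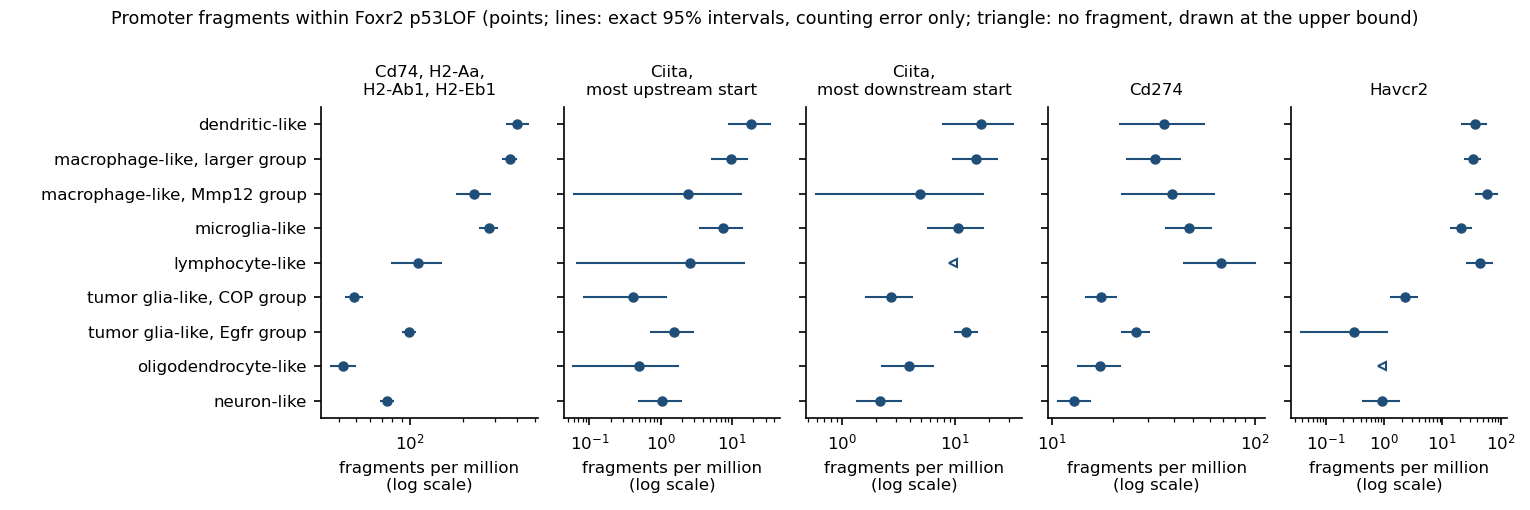
Fragment CPM (log scale) at the promoters of the MHC class II set, at the most upstream and most downstream Ciita starts, and at Cd274 and Havcr2, by group of nuclei in Foxr2 p53LOF, with exact 95% intervals for counting error. The Egfr group of tumor glia gave 12.6 fragment CPM at the downstream Ciita start against 2.71 in the COP group, close to the 12.8 of all immune-like nuclei.

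The tumor glia groups parted more in accessibility than in MHC class II RNA. The promoters of the set gave 48.7 fragment CPM (43.8 to 54.0) in the COP group and 99.4 (91.8 to 107.3) in the Egfr group, a log2 difference of 1.03 (0.84 to 1.22) beside -0.13 in RNA. Immune marker RNA was higher in the COP group, and whether it bears on the RNA value was not tested. Each of the 4 genes was more accessible in the Egfr group, by 0.60 for H2-Ab1 to 1.31 for H2-Aa. Of 11 member peaks tested 6 were 2-fold higher in the Egfr group and none lower, against 3.79% and 5.61% of all promoter peaks. Cd274 gave 17.6 and 26.1 fragment CPM, a log2 difference of 0.57 (0.23 to 0.91) in the direction of its RNA.

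Ciita is known to be driven from alternative promoters, upstream ones used by dendritic and B cells and a downstream one induced by interferon gamma. A peak covered the most upstream annotated starts (chr16:10479690-10480535, mm10) and another the most downstream ones (chr16:10489316-10490195). In immune-like nuclei 46 fragments fell in the upstream and 63 in the downstream peak, so that 57.8% (48.0 to 67.2) were downstream. In dendritic-like nuclei the counts were 10 and 9, in macrophage-like 15 and 24 and in microglia-like nuclei 10 and 14. In tumor glia-like nuclei they were 14 and 105, or 88.2% (81.1 to 93.4) downstream, an interval that did not overlap that of the immune-like nuclei. The Egfr group had 10 and 82, the COP group 3 and 20 and oligodendrocyte-like nuclei 2 and 16 fragments. Neuron-like nuclei had 10 and 21, or 67.7% (48.6 to 83.3) downstream, an interval that overlapped those of the immune-like and of the tumor glia-like nuclei. The A2m group had 2 and 4. The downstream peak gave 12.6 fragment CPM (10.0 to 15.6) in the Egfr group, 2.71 (1.65 to 4.18) in the COP group and 12.8 (9.84 to 16.4) in all immune-like nuclei. The upstream peak gave 9.35 in immune-like nuclei, 0.971 in tumor glia-like and 1.04 in neuron-like nuclei.

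Among the checkpoint genes the Cd274 promoter, shared with the divergent gene Plgrkt, gave 68.5 fragment CPM (44.7 to 100.4) in lymphocyte-like, 47.6 in microglia-like, 33.8 in macrophage-like, 21.5 in tumor glia-like, 17.3 (13.5 to 21.8) in oligodendrocyte-like and 12.9 in neuron-like nuclei. Oligodendrocyte-like nuclei of Foxr2 alone gave 2.31 (1.48 to 3.43) at a peak called on its own, and the immune-like group there 37.6. The Mmp12 group, with the highest Cd274 RNA, gave 39.0 fragment CPM against 32.2 in the larger macrophage-like group, with an interval of the log2 difference from -0.65 to 1.12. Havcr2 gave 33.7 fragment CPM in immune-like and 1.32 in tumor glia-like nuclei. Macrophage-like nuclei gave 39.2 and microglia-like nuclei 21.2 fragment CPM, a log2 difference of 0.89 (0.24 to 1.57), while its RNA was not higher in macrophage-like nuclei. The Pdcd1 peaks gave 42.1 (24.1 to 68.5, 16 fragments) in lymphocyte-like and 8.71 in macrophage-like nuclei. The Ido1 peak gave 14.8 fragment CPM in tumor glia-like and 14.6 for neuron-like nuclei but 2.44 (1.26 to 4.26) in all immune-like nuclei.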

How the data were processed

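The authors made the deposited counts with Cell Ranger ARC 2.0.0 on mm10 with vector sequences added: whole-number counts of UMIs per gene and of transposition events per peak, not normalized. Nuclei with at least 400 genes, at least 400 peak fragments (peak counts divided by 2) and at most 5% mitochondrial UMIs were kept here. The upper limits given in the study were applied as well. Doublets were marked per library and removed (353 and 540 nuclei). The members and gene lists, left out of the clustering (2000 variable genes, 30 components, resolution 0.5), were chosen with earlier results of these data known. The lists hold 21 class II pathway, 27 costimulation and checkpoint and 8 interferon gamma axis genes; besides the members, genes of these lists with at least 10 CPM in a class may be named. 1 gene of the last list is not reported here. Groups were named from fixed markers with thresholds set after seeing the data. Groups with both immune and other markers, and immune-like groups with no lead of 1 list, stayed unnamed. An exception was a lead of another type by at least 2 (log2) over the immune cell type lists, which named the group. The A2m group was named in this way, although 8 of 10 general immune markers were raised in it. Counts were summed per class and divided by the class total (CPM). Genes with at least 10 CPM on 1 side were compared on log2(CPM + 1), and a 2-fold difference was counted. Promoter peaks needed 20 fragments on 1 side. As 81.4% and 83.2% of non-zero peak values were even, values divided by 2 were taken as fragments. Exact Poisson and Clopper-Pearson 95% intervals and a limit of 3 counts for a count of 0 were used. The interval was tested on simulated data. The alternatives are given in the closing section. Gene starts came from GENCODE M21. Python 3.11.15, scanpy 1.11.5, leidenalg 0.10.2 and scipy 1.17.1 were used.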

Additional observations from a re-analysis of the deposited data

Results flagged for a closer look

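In Foxr2 p53LOF 5 groups of nuclei that no named class includes carried MHC class II RNA above the 67.8 CPM of neuron-like nuclei. The MHC class II set stood at 1890 CPM in 156 nuclei with both immune and oligodendrocyte markers and at 1426 CPM in 128 nuclei with both immune and OPC markers, which had the leading genes Ifnb1 and Acod1. It stood at 3085 CPM in 92 immune-like nuclei led by Mrc1 and F13a1, and at 3754 CPM in 84 immune-like nuclei led by genes of the cell cycle such as Mki67. It stood at 2326 CPM in 11 nuclei led by Siglech and Ccr9. Pdcd1lg2 had 16 UMIs (10.1 CPM) in the group with OPC markers. Median depth was 11134 UMIs in that group and 5950 UMIs in the group with oligodendrocyte markers. It was 2360 in macrophage-like, 2452 in oligodendrocyte-like and 7578 in tumor glia-like nuclei. Whether these 2 groups hold merged nuclei was not tested.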

How the results depend on the processing

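Over 58 alternatives of 20 results, 32 moved by less than the error, or by less than 1.5 times for counts of genes, 26 moved by more and none reversed; 16 of the alternatives were chosen after seeing the data. The log2 difference of the MHC class II set between macrophage-like and microglia-like nuclei was 1.11 with at least 1000 genes and 1000 peak counts per nucleus, 1.2 with doublets kept, 1.07 with nuclei classed by their own marker UMIs, 1.45 per nucleus, 1.35 with unnamed groups of both lists counted as macrophage-like, 1.77 with the larger group alone and 0.09 with the Mmp12 group alone. Between the libraries it was 6.75 per nucleus; the stricter filter left no group of this kind in Foxr2 alone and gave no value. Immune-like over tumor glia-like nuclei gave 3.86 under the stricter filter, 3.57 with doublets kept, 2.36 per nucleus, 4.28 with the neuron-like level subtracted, 4.0 without the A2m group and 3.71 with macrophage-like and microglia-like nuclei only. Cd274 in macrophage-like over microglia-like nuclei gave 0.37 by own marker UMIs, 0.18 with the larger group alone and 1.85 with the Mmp12 group alone. Unthinned shares were 93.2% in macrophage-like, 87.7% in microglia-like, 61.9% in tumor glia-like, 28.4% in oligodendrocyte-like and 44.7% in neuron-like nuclei. Promoter fragments per nucleus gave immune-like over tumor glia-like differences of 1.14 for the set, 0.48 for Ciita and 0.07 for Cd274, and Ciita gave 1.89 with peaks within 2 kb. Havcr2 in macrophage-like over microglia-like nuclei had an interval that included 0 under 3 alternatives, given above. The cause of these moves was not tested. No paired analysis was possible because 1 library of each genotype was counted. Low counts limit Pdcd1, Pdcd1lg2 and Ido1, and every member in Foxr2 alone other than Havcr2 and, in neuron-like nuclei, Ido1 (107 UMIs). The total was not small in neuron-like nuclei of Foxr2 alone, with 33050710 UMIs against 25168453 in Foxr2 p53LOF.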
